A study of Mus musculus with 17 samples.

Results

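The mouse embryonic stem cell (ESC) lines D3 and B8 were compared in how their microRNAs (miRNAs) changed between undifferentiated culture and embryoid bodies. The quantity described is an interaction: the change in D3 (day 7 minus day 0, log2) minus the change in B8 over the same days. A positive value means that the change in D3 was the more positive one, called higher in D3 below, and a negative value that the change in B8 was, called higher in B8. Of the 17 labelled samples of the series, 14 had values and 11 of them enter this comparison: 2 D3 libraries on day 7 (replicates 2 and 3), 3 D3 libraries on day 0, 3 B8 libraries on day 7 and 3 B8 libraries on day 0. Day 7 samples were embryoid bodies, which are clumps of differentiating cells, here grown from hanging drops and kept in medium without the cytokine LIF and with retinoic acid (RA), insulin, transferrin, selenium (ITS) and the N2 supplement. Day 0 samples were undifferentiated cells grown with LIF, serum and no feeder layer. Both lines received the same medium at each stage, so LIF withdrawal, RA, ITS and N2 are part of every day 7 sample, and neither genotype nor strain of the lines is given in the labels. Embryoid bodies are mixtures of cell types, and each library was made from total RNA of a whole sample.

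MiRNAs are short RNAs that guide Argonaute proteins to messenger RNAs, mainly through the seed, bases 2 to 8 of the mature strand, and lower the output of the targets. In mouse ESCs the miR-290 cluster is known as the dominant stem cell cluster, and let-7, which restrains growth and stem cell genes, is known to be held back there because LIN28 blocks the processing of its precursors. As cells leave pluripotency, let-7 and lineage miRNAs are known to accumulate: those of the Hox clusters in cells that receive RA, miR-9 and miR-219 in neural cells, and miR-199, miR-214, miR-143 and miR-145 in mesenchyme and smooth muscle.

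Of the 521 miRNAs tested, 429 were matched by name to mature sequences of RefSeq (GRCm38.p6). The sequences below belong to the families on which the comparison turns, with the seed in capitals. The miR-199 and miR-214 strands are shown because miR-199 had the largest fitted differences between the lines among the named miRNAs with reads in every group, miR-214 was at 0 in D3 on day 0, and miR-199a-3p and miR-199b-3p are identical in sequence and cannot be told apart by reads.
miR-199a-5p: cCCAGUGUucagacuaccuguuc
miR-199a-3p: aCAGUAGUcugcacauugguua
miR-199b-3p: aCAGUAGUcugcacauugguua
miR-214-3p: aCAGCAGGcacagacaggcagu
Members of let-7 are shown because they share a seed and still divided into those that moved in opposite directions in the lines, let-7i and miR-98, and those that rose in both, let-7a and let-7c.
let-7i-5p: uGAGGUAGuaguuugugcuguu
miR-98-5p: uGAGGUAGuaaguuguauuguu
let-7a-5p: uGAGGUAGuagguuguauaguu
let-7c-5p: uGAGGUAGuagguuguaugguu
The miR-125 pair shares its seed, as does the Hox-encoded miR-10 pair.
miR-125b-5p: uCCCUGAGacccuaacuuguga
miR-125a-5p: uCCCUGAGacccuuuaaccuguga
miR-10a-5p: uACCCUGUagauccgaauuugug
miR-10b-5p: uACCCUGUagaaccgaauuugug
The stem cell miRNAs miR-295-3p and miR-302d-3p come from different clusters, share a seed and differed between the lines in opposite directions on rescaled values, though not on deposited ones. The sequence of miR-210-3p stands for the changes that the lines shared.
miR-295-3p: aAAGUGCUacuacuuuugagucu
miR-302d-3p: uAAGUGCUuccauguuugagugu
miR-210-3p: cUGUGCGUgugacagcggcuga

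The libraries held 1008438 to 1060306 miRNA reads in D3 on day 7, 56377 to 129486 in D3 on day 0, 141823 to 256613 in B8 on day 7 and 138397 to 275271 in B8 on day 0. Values were compared on 2 scales: as deposited, and rescaled with median-of-ratios factors, which bring the typical miRNA of each library to the same level. These factors were 2.34 to 2.36 in D3 on day 7, 0.381 to 0.569 in D3 on day 0, 0.775 to 0.943 in B8 on day 7 and 0.927 to 1.03 in B8 on day 0, so the scales differ most for the change in D3. Levels below are in rescaled units unless the deposited scale is named. The miR-290 cluster made up 19.8 to 25.0% of the D3 total and 25.6 to 28.7% of the B8 total on day 0. It is the marker of the undifferentiated state that these libraries can show. D3 replicate 3 on day 0 was the shallowest library, where 3 reads correspond to 6.56 rescaled units, against 2.84 in the deepest D3 library on day 0 and 0.916 to 0.998 in D3 on day 7. Low D3 values on day 0 therefore carry the largest counting error. Whether replicates came from separate cultures is not in the labels. The p-values therefore measure only the spread between these libraries, and that spread may be technical.

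On rescaled values the interaction was called, at an adjusted p under 0.05 in limma, for 105 miRNAs higher in D3 (20.2% of those tested) and for 65 higher in B8 (12.5%), with a median of 0.51 over all 521. On deposited values it was called for 374 higher in D3 (71.8%) and 13 higher in B8 (2.50%), with a median of 2.64. That shift of the median applies to every miRNA, and members are read below against it. All 105 calls higher in D3 on rescaled values were also made on deposited values, and 13 of the 65 calls higher in B8 were. Equal column totals gave 52 higher in D3 and 107 higher in B8 with a median of -0.31, so which direction had more calls turned with the scaling. With totals set equal outside miR-10a and miR-10b the counts were 91 higher in D3 and 70 higher in B8, and with TMM factors over the miRNA rows 99 higher in D3 and 67 higher in B8. Under all 5 scalings 52 miRNAs were called higher in D3 (9.98%) and 13 higher in B8 (2.50%).

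**Figure D1:**
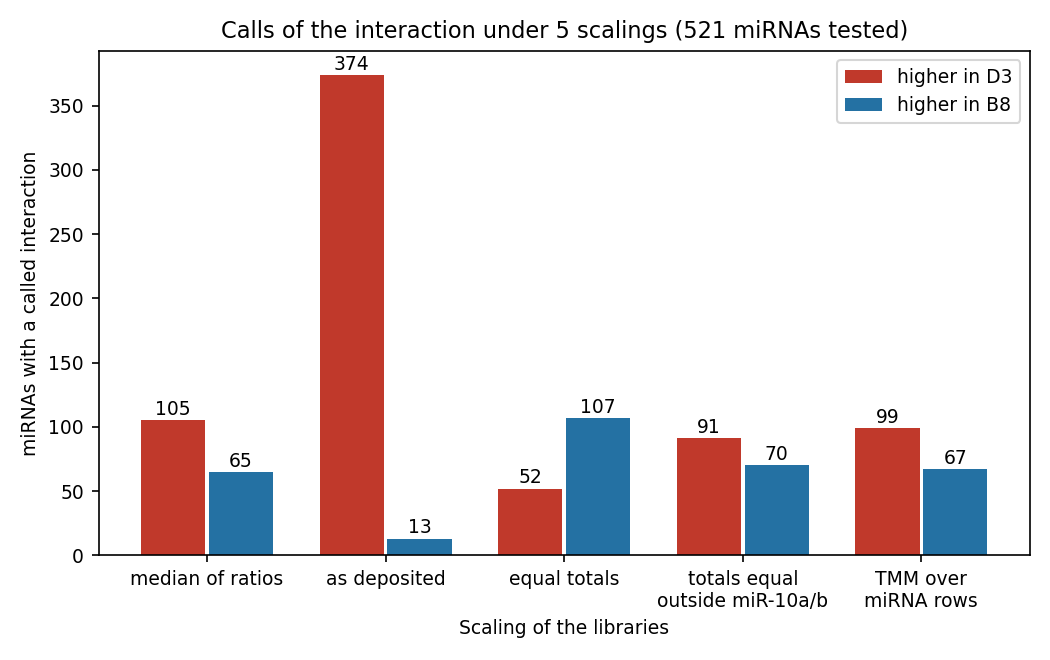
Number of miRNAs (vertical axis, of 521 tested) with a called interaction under each of 5 scalings of the libraries (horizontal axis), red for higher in D3 and blue for higher in B8. The deposited values gave 374 calls higher in D3 and 13 higher in B8, equal totals 52 higher in D3 and 107 higher in B8, and the other scalings lay between.

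On rescaled values 188 miRNAs rose in D3 (36.1%) and 140 fell (26.9%), while 140 rose in B8 (26.9%) and 134 fell (25.7%). On deposited values 367 rose in D3 (70.4%) and 36 fell (6.91%), while 114 rose in B8 (21.9%) and 146 fell (28.0%). The rescaled libraries of the days did not overlap for 378 miRNAs in D3 (72.6%) and 289 in B8 (55.5%), and a lack of overlap at a named miRNA is read against these shares. All 188 rises in D3 were called on deposited values too. Of the 140 falls in D3, 36 were also called falls on deposited values, 70 were not called there and 34 were called rises, so a fall in D3 below is relative to the typical miRNA. Both lines were called for 215 miRNAs, of which 193 moved in the same direction. Among these, 82 rises and 55 falls could not be told apart between the lines, and for 15 of the rises and 18 of the falls the 95% interval of the interaction lay within 2-fold either way. Another 56 moved in the same direction by different amounts: 31 rose more in D3, 2 rose more in B8, 14 fell more in D3 and 9 fell more in B8. A change in 1 line alone, with the difference itself called, was found for 67 miRNAs in D3 (33 rose and 34 fell) and for 24 in B8 (5 rose and 19 fell). Opposite changes were called for 22 miRNAs, 12 that rose in D3 and fell in B8 and 10 that fell in D3 and rose in B8. Leaving out B8 replicate 2 on day 0 lowered the number of opposite changes to 12. For 81 miRNAs a single line was called without a called difference, 133 were called in neither line, and 1, miR-450a-5p, differed with neither line called. Across the 521 miRNAs the D3 and B8 changes had a Pearson r of 0.691 and a Spearman rho of 0.625, given as a description, since miRNAs of a library share its depth and its scaling.

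**Figure D2:**
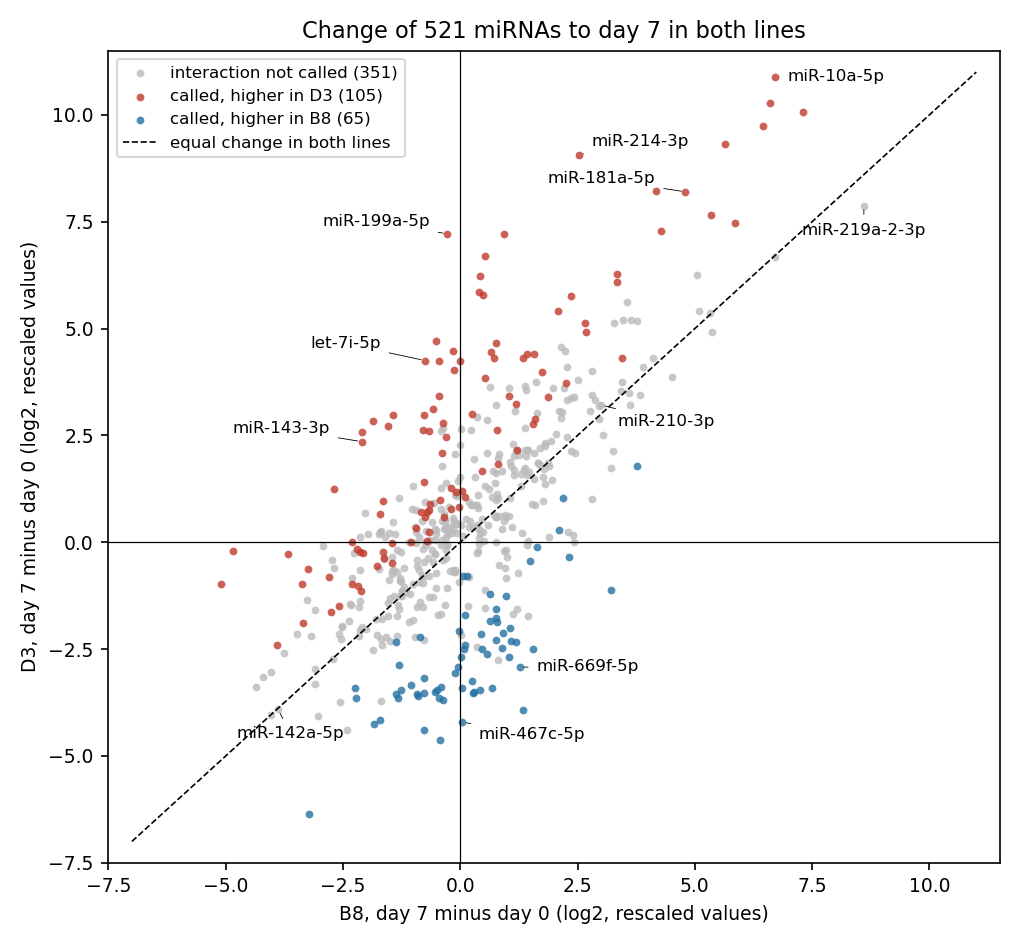
Change of each of 521 miRNAs to day 7 in D3 (vertical axis) against B8 (horizontal axis), log2 of rescaled values, coloured by the call of the interaction, with the dashed line at equal change. Most points lie along the line, miR-199a-5p, miR-143-3p and let-7i-5p stand above it, and miR-467c-5p and miR-669f-5p stand below it.

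MiRNAs of mesenchyme and smooth muscle had the largest median difference of the 23 lists. Of 11 members tested, 10 were called higher in D3 and none higher in B8, and the median interaction was 4.70 against 0.51 for all miRNAs. It was 4.13 with members at 0 in a group set to their bound, which left out 1 member with no bound. On deposited values 11 of 11 were called higher in D3, against 71.8% of all miRNAs. Under all 5 scalings 9 of the 11 were called higher in D3, against 9.98% of all miRNAs. In D3, 9 members rose and 1 fell, and in B8, 2 rose and 5 fell. Their summed level was 4140 to 4750 in D3 on day 7, 843 to 981 in D3 on day 0, 1360 to 3200 in B8 on day 7 and 3730 to 4210 in B8 on day 0. On deposited values the sum was 9760 to 11100 in D3 on day 7, 374 to 549 in D3 on day 0, 1130 to 2480 in B8 on day 7 and 3470 to 4270 in B8 on day 0. D3 embryoid bodies were above undifferentiated B8 cultures on deposited values and close to them on rescaled ones, while as a share of the library total D3 on day 7 (1.18 to 1.54%) was below B8 on day 0 (2.52 to 2.90%). In D3 on day 0, 3 members were at 0 in all libraries. In bulk samples fewer cells of a type and less RNA per cell cannot be told apart, here and in every result below.

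The miR-199a and miR-214 strands come from the Dnm3os transcript, a precursor RNA of mesenchyme, on chromosome 1 (GRCm38, chr1:162217844-162223459 for the mature strands), and miR-199a has a further locus on chromosome 9. MiR-199a-3p had 1035 and 1275 in D3 on day 7, against 7.23, 9.47 and 17.5 on day 0. In B8 miR-199a-3p had 388, 955 and 319.9 on day 7, against 326, 339 and 359 on day 0. The D3 libraries on day 0 stood below all others and did not overlap with D3 on day 7, while B8 replicate 2 on day 7 stood above the other B8 libraries, whose days overlapped. The change was 6.71 ± 0.38 in D3 (adjusted p = 1.33e-10) and 0.53 ± 0.34 in B8 (adjusted p = 0.213), and the interaction 6.18 ± 0.51 (SE, adjusted p = 7.1e-08). MiR-199b-3p, its identical copy from another locus, had 1042 and 1305 in D3 on day 7, against 11.4, 14.2 and 21.9 on day 0. B8 had 415, 983 and 298 on day 7, against 327, 378 and 404 on day 0. The interaction was 5.80 ± 0.50 (SE, adjusted p = 1.03e-07). The other strand, miR-199a-5p, had 96.4 and 110.2 in D3 on day 7, against 0, 0 and 2.19 on day 0. B8 libraries held 36.6, 37.5 and 23.2 on day 7, against 37.6, 39.8 and 38.2 on day 0. Its D3 level on day 0 rested on 1 read in 3 libraries, and the ratio of summed reads in D3 was 257, with an exact 95% counting interval of 45.97 to 10170. Its interaction of 7.49 ± 0.79 (SE, adjusted p = 9.15e-07) was the largest fitted one among the miRNAs above the median level, and B8 showed no called change (-0.28).

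MiR-214-3p had 182 and 209 in D3 on day 7, against 0 in all 3 libraries on day 0. In B8 miR-214-3p had 97.3, 196 and 133 on day 7, against 22.04, 22.5 and 25.2 on day 0. It was at 0 in all D3 libraries on day 0, so that its day 7 level was at least 46.9-fold higher when the floor is set at 3 reads for each day 0 library, whereas B8 rose by 2.54 on the log2 scale. At that bound the interaction is at least 2.94, and the fitted value of 6.53 depends on the pseudocount. MiR-214-5p, from the same hairpin, was likewise at 0 in D3 on day 0, with a bound of 2.71.

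MiR-143-3p and miR-145a, which share a transcript known from smooth muscle and fibroblasts, moved in opposite directions in the lines. MiR-143-3p had 1139 and 1257 in D3 on day 7, against 225, 212.2 and 267 on day 0. B8 had 346, 489.8 and 323 on day 7, against 1567, 1780 and 1546 on day 0. Every D3 library on day 7 stood above every D3 library on day 0, and every B8 library on day 7 stood below every B8 library on day 0. The change was 2.35 ± 0.21 in D3 (adjusted p = 4.31e-08) and -2.10 ± 0.19 in B8 (adjusted p = 7.21e-08), and the interaction 4.45 ± 0.28 (SE, adjusted p = 4.72e-09). MiR-145a-5p, named after its values were seen and resting on 4 reads in D3 on day 0, had an interaction of 4.70 with 2.85 in D3 and -1.85 in B8. MiR-21a-5p, abundant in many growing and stromal cells, had 552 and 505 in D3 on day 7, against 566, 692 and 640.4 on day 0. B8 libraries held 318, 489.8 and 242 on day 7, against 1387, 1585 and 1304 on day 0. It fell in B8 (-2.08). The D3 libraries of day 7 stood just below those of day 0, a change that was not called (-0.26) and was a rise of 2.04 on deposited values, and the interaction was 1.83 ± 0.34 (SE, adjusted p = 0.000516).

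**Figure D3:**
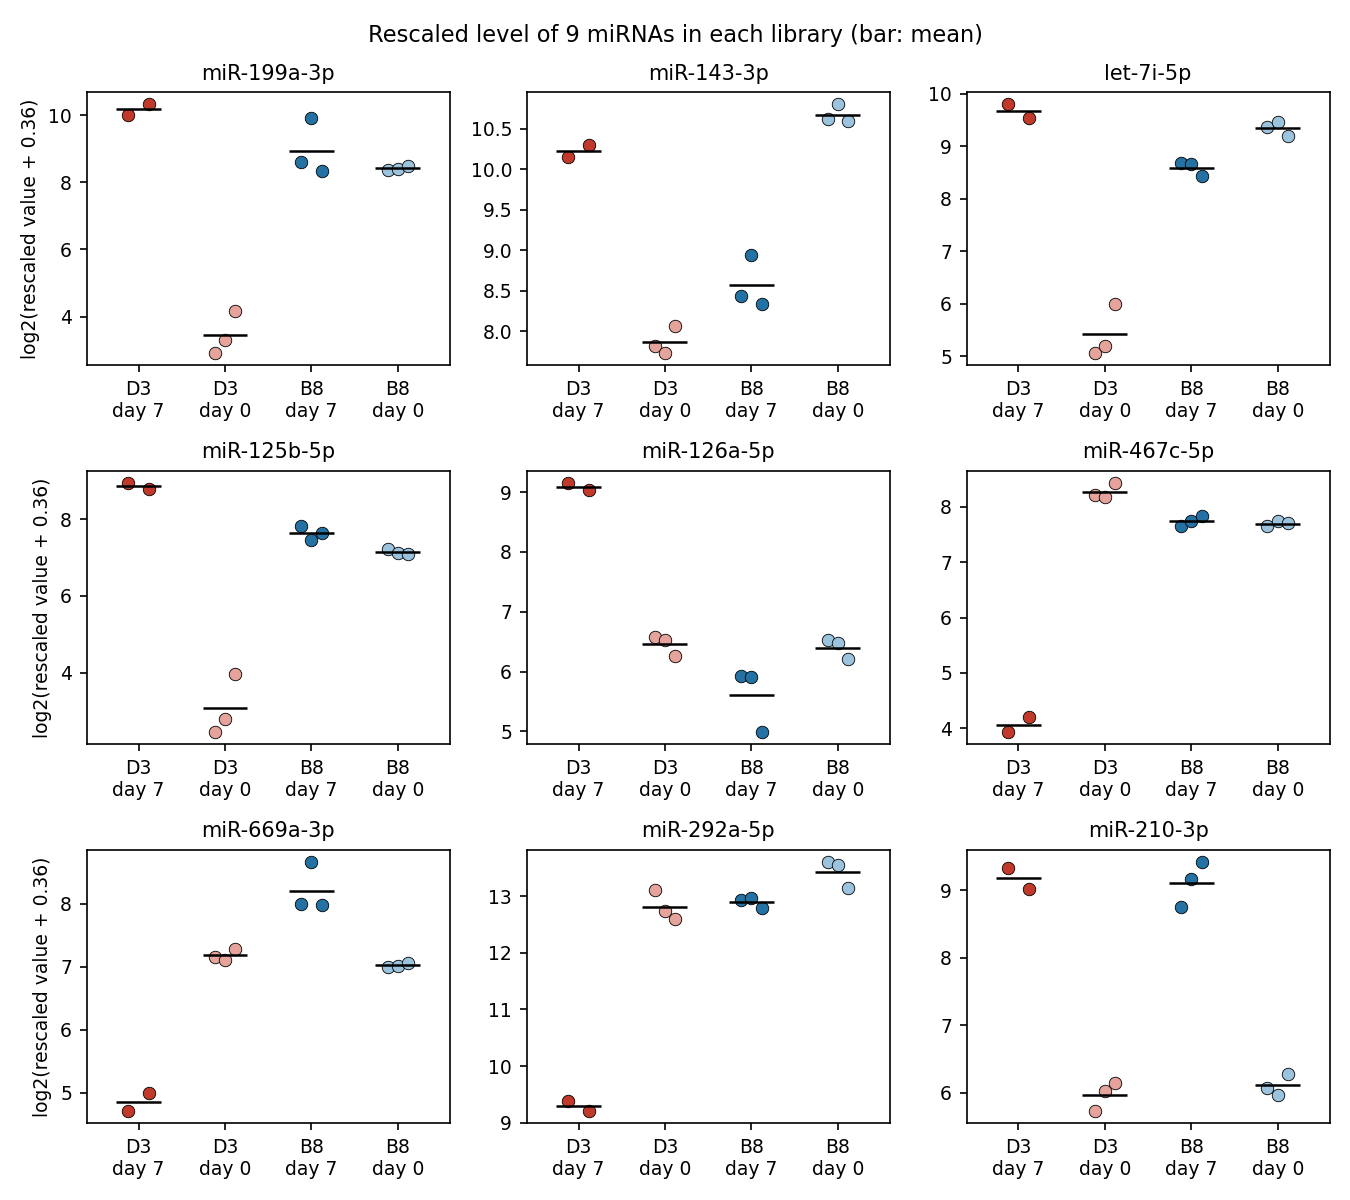
Rescaled level of 9 miRNAs in each library, as log2(value + 0.36) on the vertical axes, whose ranges differ between panels, in D3 on day 7, D3 on day 0, B8 on day 7 and B8 on day 0, with a point for each library and a bar at the mean. MiR-143-3p, let-7i-5p and miR-126a-5p moved in opposite directions in the lines, miR-467c-5p and miR-292a-5p were low in D3 on day 7, and miR-210-3p moved alike.

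The let-7 family rose further in D3, where its level on day 0 was the lower one. Of 15 members tested, 12 were called higher in D3 and none higher in B8, with a median interaction of 2.63 (2.51 with bounds, which left out 1 member with no bound), and 8 were called under all 5 scalings. In D3, 14 rose and none fell, and in B8, 7 rose and 2 fell. The summed level was 7760 to 7840 in D3 on day 7, 349 to 525 in D3 on day 0, 7000 to 8440 in B8 on day 7 and 2500 to 2710 in B8 on day 0. The lines overlapped on day 7 and not on day 0 on this scale, while on deposited values D3 on day 7 (18200 to 18500) stood above B8 on day 7 (5430 to 6990). All 9 mature strands with the let-7 seed were called higher in D3, with interactions of 0.86 to 5.0.

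Let-7i-5p had 887 and 743 in D3 on day 7, against 33.1, 36 and 63.4 on day 0. In B8 let-7i-5p had 411, 402 and 345 on day 7, against 657, 706 and 586 on day 0. D3 rose and B8 fell, with no overlap between days in either line: 4.25 ± 0.24 in D3 (adjusted p = 1.33e-10) and -0.75 ± 0.22 in B8 (adjusted p = 0.00765). The interaction was 5.0 ± 0.32 (SE, adjusted p = 5.45e-09), and 7.51 on deposited values. MiR-98-5p, a let-7 member from the X chromosome, had 103 and 92.2 in D3 on day 7, against 10.3, 11.4 and 10.9 on day 0. B8 had 72.3, 52.7 and 41.4 on day 7, against 89.8, 72.7 and 82.02 on day 0. It rose in D3 (3.12) and fell in B8 (-0.58), with an interaction of 3.70 ± 0.33 (SE, adjusted p = 1.53e-07). Among those that rose in both lines, let-7a-5p, the most abundant member, had 2615 and 2657 in D3 on day 7, against 114, 96.6 and 177 on day 0. B8 libraries held 2812, 2660 and 2799 on day 7, against 956, 906 and 938 on day 0. On rescaled values both lines reached nearly the same level on day 7, whereas the deposited values of that day were 6160 and 6230 in D3 and 2650, 2060 and 2320 in B8. D3 libraries on day 0 were the lowest of all on both scales, and the interaction was 2.83 ± 0.28 (SE, adjusted p = 4.34e-07). Let-7e-5p, encoded beside miR-99b and miR-125a, had 1657 and 1767 in D3 on day 7, against 57.9, 49.3 and 63.4 on day 0. In B8 let-7e-5p had 1516, 1314 and 1820 on day 7, against 264, 248 and 213.4 on day 0. The interaction was 2.24 ± 0.23 (SE, adjusted p = 9.1e-07). Let-7c-5p had the smallest difference of the 9 strands with the let-7 seed: 1551 and 1513 in D3 on day 7, against 77.5, 63.5 and 91.8 on day 0. B8 had 1803, 1602 and 2645 on day 7, against 195, 172 and 172 on day 0. Its interaction of 0.86 ± 0.28 (SE, adjusted p = 0.0251) was lost without D3 replicate 2 or 3 on day 7, D3 replicate 2 on day 0 or B8 replicate 1 on day 0 (adjusted p 0.115, 0.0839, 0.0638 and 0.0657) and was -0.02 with equal column totals.

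The miR-99 and miR-125 families, encoded beside let-7 genes, followed. Of 9 members tested, 7 were called higher in D3 and none higher in B8, with a median interaction of 2.76, all 9 rose in D3, and 7 rose in B8. MiR-125b-5p, the relative of lin-4 of Caenorhabditis elegans, had 488 and 441 in D3 on day 7, against 5.17, 6.63 and 15.3 on day 0. B8 libraries held 225, 176 and 199 on day 7, against 150.0, 138 and 136 on day 0. It rose in D3 and was not called in B8: 5.78 ± 0.31 in D3 (adjusted p = 5.56e-11) against 0.49 ± 0.27 in B8 (adjusted p = 0.143). The interaction was 5.28 ± 0.41 (SE, adjusted p = 4.8e-08). Its partner strand miR-125b-1-3p had 348 and 371 in D3 on day 7, against 6.201, 2.84 and 10.9 on day 0. In B8 miR-125b-1-3p had 181, 132 and 189 on day 7, against 113, 140.2 and 124 on day 0. The interaction was 5.46 ± 0.47 (SE, adjusted p = 1.04e-07). MiR-125a-5p, with the same seed, rose in both lines and had 2151 and 2059 in D3 on day 7, against 239, 182 and 179 on day 0. B8 had 1607, 1078 and 1150 on day 7, against 338, 342 and 345 on day 0. Its interaction was smaller, 1.53 ± 0.25 (SE, adjusted p = 0.000149). MiR-99b-5p, from the miR-125a transcript, had 2030 and 2029 in D3 on day 7, against 315, 322 and 341 on day 0. B8 libraries held 1703, 1250 and 2047 on day 7, against 1117, 1209 and 635 on day 0. The interaction was 1.86 ± 0.34 (SE, adjusted p = 0.000451). For miR-100-5p, encoded with miR-125b-1, the values were 493 and 477 in D3 on day 7, against 2.07, 3.79 and 24.04 on day 0. In B8 miR-100-5p had 368, 249 and 341 on day 7, against 36.5, 38.7 and 20.5 on day 0. D3 replicate 3 on day 0 stood above the other D3 libraries of that day, and the interaction of 2.93 ± 0.85 (SE, adjusted p = 0.0122) had an adjusted p of 0.0517 without D3 replicate 2 on day 7 (value 2.86).

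MiRNAs of the Hox clusters, whose neighbouring genes are known to respond to RA, rose in both lines, 7 of the 8 tested in each. Of these 8, 5 were called higher in D3 and 1 higher in B8, with a median interaction of 2.87, which was -0.30 with the 3 members at 0 in D3 on day 0 set to their bound. The direction of that median therefore rests on the pseudocount, and the named members are given here. MiR-10a-5p, from the HoxB cluster on chromosome 11, had 150100 and 124100 in D3 on day 7, against 50.6, 65.4 and 112 on day 0. B8 had 49530, 48000 and 59090 on day 7, against 529.5, 542 and 433 on day 0. Days did not overlap in either line, and D3 was the lower line on day 0 and the higher one on day 7. The change was 10.89 in D3 and 6.70 in B8, and the interaction 4.18 ± 0.35 (SE, adjusted p = 7.1e-08). MiR-10b-5p, from the HoxD cluster on chromosome 2, had 86340 and 70830 in D3 on day 7, against 50.6, 56.9 and 85.2 on day 0. B8 libraries held 32480, 30840 and 51310 on day 7, against 427, 418 and 312 on day 0. The interaction was 3.67 ± 0.34 (SE, adjusted p = 1.98e-07). Without D3 replicate 3 on day 0, which was the highest D3 library of that day for both, the interaction of miR-10a-5p was 4.49. MiR-10a and miR-10b took 63.4 to 67.2% of the total in D3 on day 7, 0.0807 to 0.160% in D3 on day 0, 42.0 to 47.0% in B8 on day 7 and 0.579 to 0.660% in B8 on day 0. With totals set equal outside these miRNAs, which takes that share out of the scaling, the calls were the 91 higher in D3 and 70 higher in B8 given above. MiR-615-3p, from the HoxC cluster, had 502 and 458 in D3 on day 7, against 0, 0.947 and 0 on day 0. In B8 miR-615-3p had 260.2, 167 and 318 on day 7, against 3.76, 3.46 and 0.932 on day 0. Its D3 rise rested on 1 read on day 0, with a ratio of summed reads of 1188 (exact 95% counting interval 213.1 to 46960), and the interaction was 3.29 ± 0.75 (SE, adjusted p = 0.00252). The exception on rescaled values was miR-196a-5p, named after its values were seen, with -1.85 (-1.22 in D3 and 0.62 in B8). It had 6 and 6 reads in D3 on day 7, against 7, 4 and 2 on day 0. On deposited values the lowest interaction of the 8 members was 0.41 and the lowest D3 change 0.80. The direction of miR-196a-5p therefore rests on the scaling. MiR-196b-5p, also named after its values were seen and resting on 2 reads in D3 on day 0, had an interaction of 0.76 that was not called (adjusted p = 0.434).

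The miR-181 family, known from lymphocyte and muscle differentiation, had 4 of 7 members called higher in D3 and none higher in B8, with a median of 2.33 (1.65 with bounds, which left out 1 member with no bound). On deposited values all 7 rose in D3, against 70.4% of all miRNAs. All 7 were also called higher in D3 on that scale, against 71.8% of all miRNAs. MiR-181a-5p had 7544 and 6750 in D3 on day 7, against 19.6, 19.9 and 34.97 on day 0. B8 had 5763, 4728 and 11360 on day 7, against 283, 240.0 and 210.6 on day 0. Both lines rose without overlap, with D3 the lower line on day 0, and the interaction was 3.40 ± 0.40 (SE, adjusted p = 3.87e-06). MiR-181b-5p had 2206 and 1918 in D3 on day 7, against 12.4, 8.53 and 8.74 on day 0. B8 libraries held 1550, 1120 and 2706 on day 7, against 34.9, 47.3 and 41.9 on day 0. The interaction was 2.33 ± 0.38 (SE, adjusted p = 0.000137). MiR-181d-5p, with the same seed and a separate locus, was called in neither line on rescaled values: 795 and 800.2 in D3 on day 7, against 721, 676 and 852 on day 0. In B8 miR-181d-5p had 789, 688 and 1160 on day 7, against 659.6, 674 and 619.8 on day 0. The interaction was -0.30 (95% interval -0.85 to 0.25). On deposited values miR-181d-5p rose in D3, with 1870 and 1880 on day 7, against 361, 385 and 325 on day 0.

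Several miRNAs of other tissues rose in D3 and not in B8. MiR-126a is encoded in Egfl7 and known from endothelium. Its 5p strand had 566 and 523 in D3 on day 7, against 95.1, 91.9 and 76.5 on day 0. B8 had 60.7, 59.9 and 31.5 on day 7, against 91.4, 88.3 and 73.6 on day 0. Only D3 on day 7 was high, and the strand fell in B8 (-0.79), which made an interaction of 3.42 ± 0.37 (SE, adjusted p = 1.28e-06). For the 3p strand the values were 124 and 165 in D3 on day 7, against 27.9, 37.9 and 34.97 on day 0. B8 libraries held 19.1, 19.5 and 19.9 on day 7, against 20.4, 27.1 and 30.8 on day 0. The interaction was 2.49 ± 0.36 (SE, adjusted p = 3.85e-05). MiR-34c-5p, of a p53-responsive cluster, had 283 and 288 in D3 on day 7, against 131, 148 and 162 on day 0. In B8 miR-34c-5p had 126, 230.1 and 121 on day 7, against 484, 484 and 463 on day 0. It rose in D3 (0.96) and fell in B8 (-1.65), with an interaction of 2.61 ± 0.34 (SE, adjusted p = 1.24e-05). Its cluster neighbours miR-34b-3p and miR-34b-5p, named after their values were seen, had interactions of 3.75 and 4.42 on 2 reads each in D3 on day 0. The ratio of summed D3 reads was 8.29 (exact 95% counting interval 2.16 to 70.7) for miR-34b-3p and 6.12 (1.56 to 52.8) for miR-34b-5p. MiR-34a-5p, from a separate locus, went the other way on rescaled values: 109 and 94.04 in D3 on day 7, against 156, 191 and 177 on day 0. B8 had 153, 233 and 182 on day 7, against 160.2, 170.2 and 177 on day 0. It fell in D3 (-0.78) with an interaction of -0.92 ± 0.26 (SE, adjusted p = 0.0116), which was not called without D3 replicate 3 on day 7 (-0.85, adjusted p = 0.0531). On deposited values it turned to 1.60, with a D3 change of 1.51. MiR-148b-3p had 166 and 121 in D3 on day 7, against 56.8, 102 and 74.3 on day 0. B8 libraries held 73.99, 59.1 and 62.98 on day 7, against 102, 98.1 and 108 on day 0. It rose in D3 and fell in B8, with an interaction of 1.55 ± 0.37 (SE, adjusted p = 0.00344).

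Of 10 blood and endothelial members, 3 were called higher in D3 and 1 higher in B8, against 20.2% and 12.5% of all miRNAs. Their median was 0.16 (1.16 with bounds, which left out 3 members with no bound). Their summed level was 733 to 744 in D3 on day 7, 219 to 228 in D3 on day 0, 116 to 154 in B8 on day 7 and 524 to 611 in B8 on day 0, with miR-126a the main part in D3 on day 7. Of 11 endoderm members, 5 were called higher in D3 and 1 higher in B8. The 5 were strands of miR-216a, miR-216b and miR-217, a pancreatic cluster on chromosome 11, and 4 of them were at 0 in D3 on day 0 and in a B8 group. For those 4 the interaction has no bound. The remaining strand, miR-216b-5p, was also at 0 in D3 on day 0, with 1 read in B8 on day 0, and its bound was -1.53. All 5 calls therefore rest on the pseudocount. With bounds the endoderm median of 0.69 became -0.80 with 5 members left out. MiR-375-3p, known from pancreatic islets, had 43.9 and 54.04 in D3 on day 7, against 26.9, 18.9 and 26.2 on day 0. In B8 miR-375-3p had 86.5, 66.4 and 108 on day 7, against 17.2, 15.6 and 23.3 on day 0. It rose in both lines and more in B8, with an interaction of -1.16 ± 0.36 (SE, adjusted p = 0.0184), which was lost without D3 replicate 2 on day 7 or B8 replicate 2 on day 0 (adjusted p 0.0898 and 0.0547) and was 1.33 on deposited values. MiR-192-5p, of gut and liver, had an interaction of 0.42 that was not called (95% interval -0.30 to 1.13).

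In the other direction stood the Sfmbt2 intron cluster, a large rodent-specific array in an imprinted gene on chromosome 2, listed here by name. Of 42 members tested, 31 were called higher in B8 and none higher in D3, with a median interaction of -3.0 against 0.51 for all miRNAs (-2.95 with bounds). In D3 none rose and 35 fell, and in B8, 8 rose and none fell. On deposited values 12 fell in D3, with a median D3 change of -0.55, and 4 rose in B8. The deposited interaction was called higher in B8 for 11 and higher in D3 for none, and 11 were called under all 5 scalings, of the 13 miRNAs called higher in B8 under all. The summed level was 215 to 219 in D3 on day 7, 1850 to 2050 in D3 on day 0, 2150 to 2420 in B8 on day 7 and 1620 to 1760 in B8 on day 0. D3 on day 7 stood far below the other groups, and B8 on day 7 stood above B8 on day 0. The deposited sums had the same order of days, with 503 to 515 in D3 on day 7, 781 to 1140 in D3 on day 0, 1780 to 2080 in B8 on day 7 and 1630 to 1680 in B8 on day 0. Many members are near-identical, so single values are uncertain one by one.

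MiR-467c-5p had 14.96 and 18.01 in D3 on day 7, against 298, 291 and 343 on day 0. B8 had 200.4, 215 and 227 on day 7, against 201, 214 and 208 on day 0. The B8 days overlapped, D3 fell without overlap, and the change was -4.21 ± 0.19 in D3 (adjusted p = 1.01e-11) against 0.04 ± 0.17 in B8 (adjusted p = 0.849). The interaction was -4.25 ± 0.26 (SE, adjusted p = 4.48e-09), and -1.74 on deposited values (adjusted p = 0.000189). MiR-669f-5p had 8.31 and 6.72 in D3 on day 7, against 49.6, 65.4 and 63.4 on day 0. B8 libraries held 83.96, 86.6 and 79.5 on day 7, against 34.4, 31.7 and 37.3 on day 0. It fell in D3 and rose in B8 without overlap of days, with an interaction of -4.19 ± 0.33 (SE, adjusted p = 5.56e-08). On deposited values its D3 change was -0.67 and not called (adjusted p = 0.0577). MiR-669a-3p had 25.9 and 31.4 in D3 on day 7, against 143, 137 and 155 on day 0. In B8 miR-669a-3p had 254, 404 and 252 on day 7, against 127, 129 and 133 on day 0. The changes were again opposite on rescaled values, with an interaction of -3.51 ± 0.30 (SE, adjusted p = 9.2e-08), while the deposited D3 change was -0.04 and not called. The more abundant strand miR-669a-5p had 42.2 and 31.8 in D3 on day 7, against 399, 445 and 433 on day 0. B8 had 434, 459.5 and 414 on day 7, against 341, 363 and 379 on day 0. It fell in D3 (-3.52), was not called in B8 (0.27), and had an interaction of -3.80 ± 0.26 (SE, adjusted p = 1.36e-08). MiR-467a-5p had 32.9 and 29 in D3 on day 7, against 216, 238 and 254 on day 0. B8 libraries held 282, 198 and 309.9 on day 7, against 262, 259 and 286 on day 0. The interaction was -2.86 ± 0.30 (SE, adjusted p = 9.1e-07), which was -0.34 and not called on deposited values (adjusted p = 0.449). Other members named by the same rule were miR-669c-5p (-4.05), miR-669l-5p (-3.88), miR-669p-5p (-3.80), miR-669o-3p (-3.73), miR-669o-5p (-3.35) and miR-467e-5p (-3.17), all called higher in B8 on rescaled values.

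Listed miRNAs with sequence like that of rRNA or tRNA pieces, a sign of RNA quality, moved in the same direction in part on rescaled values. Of 4 tested, 2 were called higher in B8, with a median of -2.03. On deposited values 2 were called higher in D3 and 1 higher in B8, with a median of 0.47. The direction of the list therefore rests on the scaling. MiR-1983, named after its values were seen, rose in both lines, with a rescaled interaction of 0.64 that was not called. Their summed level was 123 to 135 in D3 on day 7, 641 to 750 in D3 on day 0, 139 to 245 in B8 on day 7 and 351 to 406 in B8 on day 0. MiR-2137 had 41.2 and 33.6 in D3 on day 7, against 415, 433 and 358 on day 0. In B8 miR-2137 had 44.1, 38.95 and 69.6 on day 7, against 48.9, 17.3 and 34.5 on day 0. It was high in D3 on day 0 alone, with an interaction of -4.09 ± 0.47 (SE, adjusted p = 2.79e-06). MiR-6240 had 22.6 and 25.6 in D3 on day 7, against 70.3, 134 and 127 on day 0. B8 had 44.1, 28.9 and 96.1 on day 7, against 36.02, 21.4 and 23.3 on day 0. The interaction was -3.04 ± 0.54 (SE, adjusted p = 0.00034). MiR-6539 fell in both lines (-4.06 in D3 and -3.04 in B8), and its interaction of -1.02 was not called (adjusted p = 0.0532), though it was called without any 1 of 3 libraries (-1.39 without D3 replicate 3 on day 7, -1.13 without D3 replicate 1 on day 0, -1.04 without B8 replicate 2 on day 7). The part of RNA quality in the results for D3 on day 0 was not tested.

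The miR-290 cluster, on chromosome 7 (GRCm38, chr7:3218639-3220837 for the mature strands), fell in both lines, 12 of 13 strands in D3 and 10 in B8, and on rescaled values further in D3. Of the 13 strands, 11 were called higher in B8 and none higher in D3, with a median of -2.42. On deposited values 1 was called higher in B8 and 2 higher in D3, with a median of 0.11, so the direction of the cluster rests on the scaling. Against the median of all miRNAs on deposited values, 2.64, the cluster still lay lower. The summed level was 2030 to 2390 in D3 on day 7 and 24400 to 31300 on day 0. In B8 it was 14000 to 19700 on day 7 and 33100 to 42500 on day 0. On deposited values the sum was 4760 to 5620 in D3 on day 7 and 9320 to 15700 on day 0. The deposited sum in B8 was 11600 to 17000 on day 7 and 30700 to 44000 on day 0. B8 thus stood above D3 on both days and both scales. The median change on deposited values was -1.3 in D3 and -1.48 in B8. MiR-292a-5p had 667 and 593 in D3 on day 7, against 8775, 6796 and 6218 on day 0. B8 libraries held 7759, 8030 and 7079 on day 7, against 12360, 11910 and 9067 on day 0. D3 on day 7 stood far below every other library, B8 on day 7 stood below B8 on day 0, and the interaction was -2.98 ± 0.24 (SE, adjusted p = 5.56e-08). The change on rescaled values was -3.51 ± 0.18 in D3 (adjusted p = 2.8e-11) and -0.53 ± 0.16 in B8 (adjusted p = 0.0097). MiR-294-5p, the only member called higher in B8 on both scales, had 3.99 and 4.27 in D3 on day 7, against 103, 85.3 and 93.98 on day 0. In B8 miR-294-5p had 50.7, 86.6 and 43.1 on day 7, against 102, 108 and 87.6 on day 0. The interaction was -3.61 ± 0.41 (SE, adjusted p = 2.47e-06), which was -1.15 on deposited values. MiR-293-3p had 182 and 167 in D3 on day 7, against 3284, 3193 and 3558 on day 0. B8 had 1087, 1585 and 963 on day 7, against 3935, 4127 and 4681 on day 0. The interaction was -2.42 ± 0.26 (SE, adjusted p = 9.77e-07), and 0.11 on deposited values. MiR-295-3p had 1033 and 809 in D3 on day 7, against 12830, 11450 and 9989 on day 0. B8 libraries held 4984, 4143 and 1775 on day 7, against 17940, 16350 and 12570 on day 0. The lowest B8 library was replicate 3 on day 7. Its interaction of -1.42 ± 0.42 (SE, adjusted p = 0.0136) was lost without D3 replicate 3 on day 7 (-1.27, adjusted p = 0.0697) and was 1.11 on deposited values.

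In the miR-302 cluster, of primed pluripotent cells, miR-302b-3p and miR-302d-3p share their seed with miR-291a-3p, miR-294-3p and miR-295-3p. Other strands of the cluster, such as miR-367-3p, have another seed. The called differences of the miR-302 cluster had the opposite sign to those of the miR-290 cluster on rescaled values. Of 7 strands tested, 3 were called higher in D3 and none higher in B8, with a median of 0.13 (1.14 with bounds, which left out 2 members with no bound). In each line 6 strands fell, whereas on deposited values 1 fell and 1 rose in D3, and 6 fell in B8. MiR-302d-3p had 36.9 and 40.6 in D3 on day 7, against 119, 129 and 114 on day 0. In B8 miR-302d-3p had 25.8, 22.4 and 16.6 on day 7, against 147, 160.4 and 132 on day 0. Both lines fell without overlap, B8 to the lower level, and the interaction was 1.14 ± 0.29 (SE, adjusted p = 0.00555). On deposited values it had 86.9 and 95.2 in D3 on day 7, against 59.5, 73.3 and 43.3 on day 0, a D3 change of 0.66 that was not called (adjusted p = 0.0577). MiR-302a-3p had 11.3 and 17.4 in D3 on day 7, against 63.04, 54 and 43.7 on day 0. B8 had 9.14, 3.61 and 4.97 on day 7, against 56.4, 63.5 and 59.6 on day 0. The interaction was 1.47 ± 0.44 (SE, adjusted p = 0.0145), which was lost without D3 replicate 3 on day 7 (1.14, adjusted p = 0.120). MiR-302b-3p had 16.6 and 17.7 in D3 on day 7, against 18.6, 31.3 and 32.8 on day 0. B8 libraries held 6.65, 2.88 and 1.66 on day 7, against 30.6, 30.6 and 40.1 on day 0. It fell in B8 alone and had an interaction of 2.61 ± 0.55 (SE, adjusted p = 0.00144), and on deposited values it rose in D3 (1.62). The B8 libraries on day 7 held 8, 4 and 1 reads of miR-302b-3p and 11, 5 and 3 of miR-302a-3p. The size of both falls in B8 is thus uncertain. Among 5 strands in the matched table with the seed of miR-302b-3p and miR-302d-3p, 3 were called higher in B8 and 2 higher in D3.

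The miR-183 cluster, known from sensory cells and abundant in ESCs, fell in D3 for 6 of 6 strands and in B8 for 5, and 2 were called higher in B8, with a median interaction of -0.86. MiR-182-5p had 2127 and 2551 in D3 on day 7, against 16180, 18710 and 16450 on day 0. In B8 miR-182-5p had 9493, 8302 and 9336 on day 7, against 23440, 23430 and 20590 on day 0. Days did not overlap in either line, and the interaction was -1.56 ± 0.22 (SE, adjusted p = 2.39e-05). MiR-183-5p had 149 and 171 in D3 on day 7, against 762, 809 and 839 on day 0. B8 had 526, 396 and 466 on day 7, against 1250, 1313 and 1002 on day 0. The interaction was -0.97 ± 0.23 (SE, adjusted p = 0.00361). On deposited values both interactions turned, to 0.97 for miR-182-5p and 1.56 for miR-183-5p, and 1 of 6 strands of the cluster fell in D3, with a median D3 change of -0.41. The deposited D3 changes of miR-182-5p (-0.57) and miR-183-5p (-0.03) were not called. The miR-17-92 cluster and its paralogs, which promote proliferation, had 3 of 25 strands called higher in D3 and none higher in B8, against 20.2% and 12.5% of all miRNAs, with a median of 0.70 near that of all miRNAs. On deposited values 24 of 25 were called higher in D3, against 71.8% of all miRNAs. MiR-92a-3p fell in both lines without overlap and had 809 and 940.1 in D3 on day 7, against 2776, 2167 and 2774 on day 0. B8 libraries held 1161, 1046 and 1565 on day 7, against 2967, 3067 and 3160 on day 0. Its interaction of -0.24 was not called (95% interval -0.79 to 0.31), and on deposited values it rose in D3 (0.75). MiR-93-5p had an interaction of 0.57 (adjusted p = 0.0871), which was called without B8 replicate 2 on day 7 (0.82, adjusted p = 0.00149).

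The imprinted Dlk1-Dio3 region, the largest group of members tested, had 16 of 80 called higher in D3 and 2 higher in B8, with a median of 0.64. That share of 16 of 80 is close to the 20.2% of all miRNAs. In D3, 5 rose and 25 fell on rescaled values, while 59 rose and 1 fell on deposited values, so the direction in D3 turned with the scale. In B8, 3 rose and 39 fell on rescaled values, and 3 rose and 44 fell on deposited ones. The summed level was 21100 to 22100 in D3 on day 7, 34700 to 36600 in D3 on day 0, 8530 to 9330 in B8 on day 7 and 19400 to 20500 in B8 on day 0. MiR-127-3p, antisense to Rtl1, had 9173 and 9351 in D3 on day 7, against 15890, 16790 and 17340 on day 0. In B8 miR-127-3p had 3588, 3673 and 4535 on day 7, against 9977, 9435 and 9222 on day 0. It fell in both lines without overlap on rescaled values, while on deposited values it rose in D3, with 21600 and 21900 on day 7, against 7960, 9550 and 6610 on day 0. The rescaled interaction of 0.44 was not called (adjusted p = 0.1) but was without B8 replicate 3 on day 7 (0.53, adjusted p = 0.0248). MiR-410-3p had 2271 and 2275 in D3 on day 7, against 1915, 2402 and 2406 on day 0. B8 had 739, 892 and 742 on day 7, against 1236, 1356 and 1297 on day 0. It fell in B8 alone and had an interaction of 0.75 ± 0.21 (SE, adjusted p = 0.00992), and on deposited values it rose in D3 (2.33). That call was lost without D3 replicate 2 on day 7 (0.69, adjusted p = 0.0517), and the value was -0.13 with equal column totals. MiR-541-5p fell in both lines and had 2379 and 2657 in D3 on day 7, against 4849, 3910 and 4188 on day 0. B8 libraries held 1368, 1375 and 1336 on day 7, against 2448, 2388 and 2304 on day 0. The interaction of 0.03 had a 95% interval of -0.37 to 0.43, and on deposited values miR-541-5p rose in D3 (1.53).

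Of 22 neural members, 3 were called higher in D3 and 1 higher in B8, with a median of 0.68, against 20.2% and 12.5% of all miRNAs. In D3 13 rose, against 36.1% of all miRNAs, and in B8 9 rose, against 26.9%. On deposited values 18 of the 22 were called higher in D3 and none higher in B8, against 71.8% and 2.50% of all miRNAs. On that scale 20 rose in D3, against 70.4% of all miRNAs. MiR-9-5p, of neural progenitors, had 4195 and 3492 in D3 on day 7, against 10.3, 28.4 and 32.8 on day 0. In B8 miR-9-5p had 1827, 1678 and 2310 on day 7, against 31.2, 35.2 and 32.6 on day 0. Both lines rose without overlap, D3 to the higher level, and the interaction of 1.61 ± 0.46 (SE, adjusted p = 0.0108) was lost without D3 replicate 2 on day 7 (1.42, adjusted p = 0.0742). MiR-219a-2-3p, of the oligodendrocyte lineage, had 627 and 535 in D3 on day 7, against 1.03, 1.895 and 4.37 on day 0. B8 had 332, 375 and 519 on day 7, against 0.537, 0.577 and 0.932 on day 0. It rose in both lines without overlap, on 5 reads in D3 and 3 in B8 on day 0, with a B8 ratio of summed reads of 600.8 (exact 95% counting interval 205.1 to 2917). The interaction of -0.73 was not called (95% interval -1.82 to 0.36). MiR-7a-5p, of neurons and endocrine cells, had 51.2 and 39.4 in D3 on day 7, against 522, 502 and 418 on day 0. B8 libraries held 134, 82.96 and 67.95 on day 7, against 518, 408 and 376 on day 0. It fell in both lines, further in D3, with an interaction of -1.17 ± 0.34 (SE, adjusted p = 0.0132), which was lost without D3 replicate 3 on day 7 (-1.01, adjusted p = 0.0762) and was 1.35 on deposited values.

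Epithelial members had 3 of 11 called higher in B8 and none higher in D3, against 12.5% and 20.2% of all miRNAs, with a median of -0.52. On deposited values none was called higher in B8 and 8 higher in D3. That share of 8 of 11 is close to the 71.8% of all miRNAs on that scale. MiR-429-3p, of the miR-200 family, had 67.5 and 85.2 in D3 on day 7, against 127, 136 and 131 on day 0. In B8 miR-429-3p had 218, 235 and 219 on day 7, against 202, 235 and 206 on day 0. It fell in D3 alone, with an interaction of -0.86 ± 0.25 (SE, adjusted p = 0.0131), which was lost without D3 replicate 2 on day 7 (-0.75, adjusted p = 0.0668). On deposited values it rose in D3 (1.5), with an interaction of 1.66. MiR-205-5p, of surface epithelium, was called in neither line on rescaled values, with an interaction of -0.04 (95% interval -0.58 to 0.49). Its deposited values in D3 were 405 and 502 on day 7, against 139, 123 and 104 on day 0. MiR-141-3p fell in both lines and had 11.3 and 16.2 in D3 on day 7, against 34.1, 63.5 and 50.3 on day 0. B8 had 40.7, 37.5 and 33.1 on day 7, against 125, 127 and 104 on day 0. The interaction was -0.13 (95% interval -0.95 to 0.69), and the deposited D3 change of 0.47 was not called. The 4 muscle members were near the floor, with summed levels of 7.32 to 10.1 in D3 on day 7, 0 to 2.07 in D3 on day 0, 3.31 to 10.8 in B8 on day 7 and 1.15 to 2.69 in B8 on day 0, and none was called.

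Smaller families were mixed. Of all miRNAs 20.2% were called higher in D3 and 12.5% higher in B8, with a median of 0.51, and the counts of these families are read against that. The miR-15 and miR-16 family with miR-322 and miR-503, which targets cell cycle genes, had 1 of 11 strands called higher in D3 and none higher in B8 (median 0.55, or 0.33 with bounds and 1 member left out). Of 5 strands of miR-34 and miR-449, 3 were called higher in D3 and 1 higher in B8, and of 3 miR-29 strands 1 was called higher in D3. MiR-29a-3p, which targets collagens, had 11.3 and 7.94 in D3 on day 7, against 18.6, 15.2 and 24.04 on day 0. B8 libraries held 10.8, 12.98 and 9.94 on day 7, against 125, 117 and 114 on day 0. It fell in both lines, further in B8, where the level on day 0 was the highest of all, and the interaction was 2.39 ± 0.37 (SE, adjusted p = 9.52e-05). On deposited values it rose in D3 (1.26). Of 8 members of the miR-130 and miR-301 family, 3 were called higher in D3, with a median of 1.25. MiR-301a-3p rose in both lines and had 2664 and 2510 in D3 on day 7, against 319, 447 and 385 on day 0. In B8 miR-301a-3p had 1377, 1254 and 1328 on day 7, against 458, 509 and 383 on day 0. The interaction was 1.21 ± 0.24 (SE, adjusted p = 0.000791). MiR-130b-3p rose in both lines by 0.81 in D3 and 0.39 in B8 and could not be told apart (interaction 0.43), and miR-130a-3p was called in D3 only (0.39, with 0.02 in B8), with an interaction of 0.37 that was not called. Of 8 strands of miR-23, miR-27 and miR-24, 2 were called higher in D3, with a median of 0.55, both near the values of all miRNAs. MiR-27b-3p fell in B8 alone and had 1530 and 1456 in D3 on day 7, against 1091, 1253 and 1239 on day 0. B8 had 986, 823 and 878 on day 7, against 1805, 1757 and 1575 on day 0. The interaction was 1.26 ± 0.21 (SE, adjusted p = 0.000209). MiR-27a-3p fell in both lines (-1.84 in D3 and -2.36 in B8), though its deposited D3 change of 0.45 was not called. It had an interaction of 0.53 that was called without B8 replicate 1 on day 7 (0.89, adjusted p = 0.0175). Of 11 miR-30 strands, 1 was called higher in D3, miR-30e-3p (1.21), and 8 rose in each line. MiR-30a-5p had 411 and 383 in D3 on day 7, against 86.8, 115 and 127 on day 0. B8 libraries held 200.4, 252 and 177 on day 7, against 106, 104 and 87.6 on day 0. Its interaction of 0.81 had an adjusted p of 0.0504, which was 0.0378, 0.0135 and 0.0403 without D3 replicate 3 on day 0, B8 replicate 2 on day 7 and B8 replicate 3 on day 0.

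**Figure D4:**
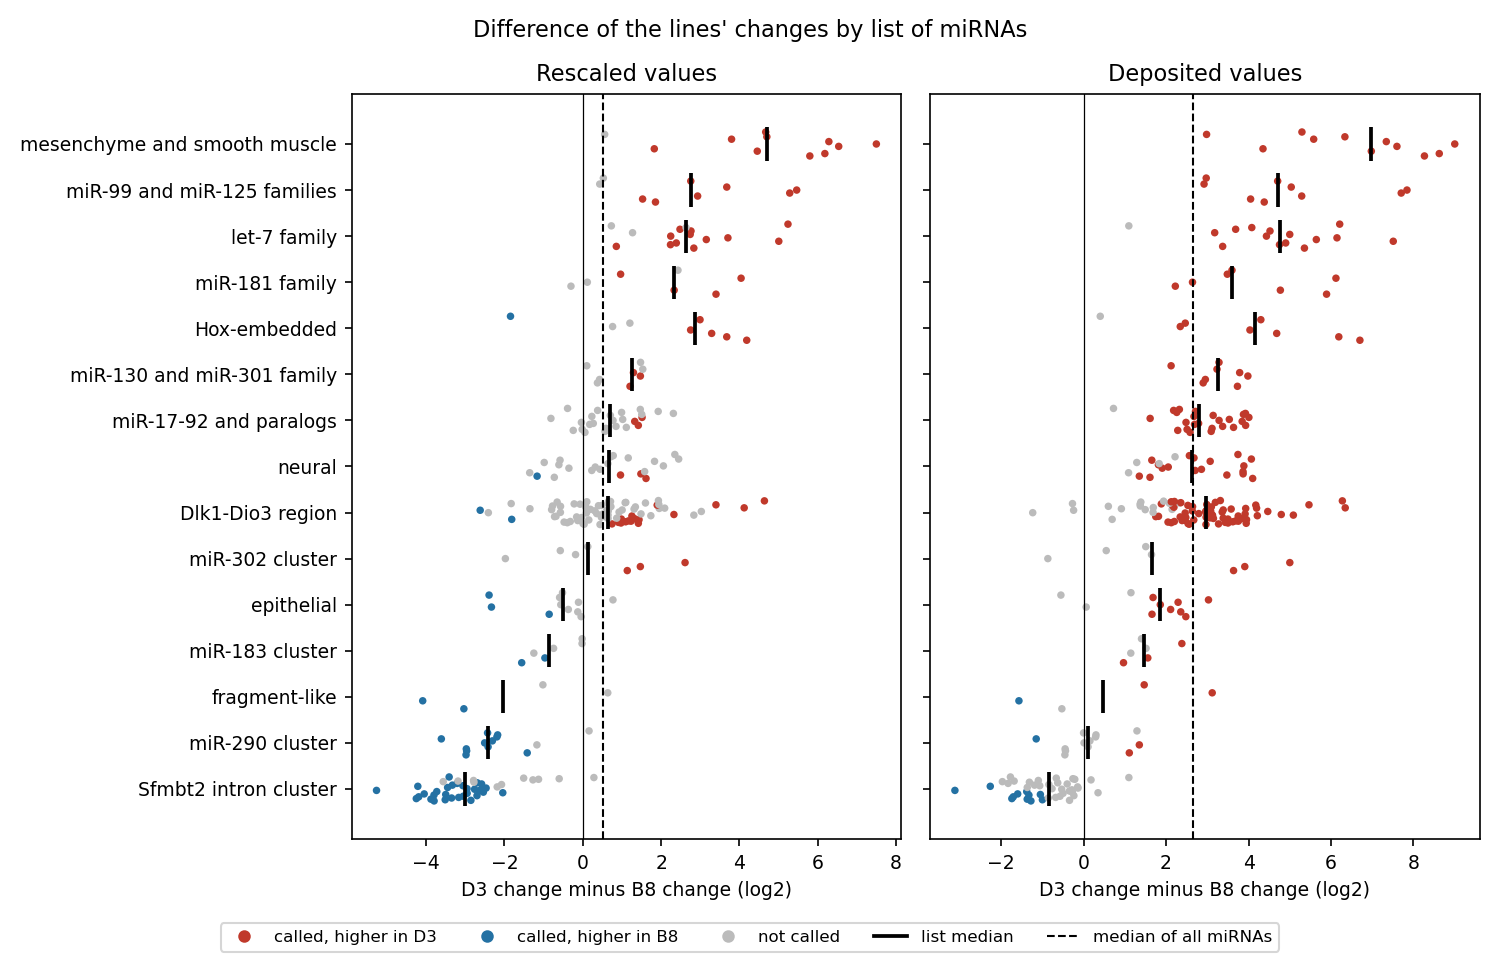
Interaction (horizontal axis, D3 change minus B8 change, log2) of the members of 15 lists of miRNAs on rescaled values (left) and deposited values (right), with a point for each miRNA coloured by its call, a thick bar at the list median and a dashed line at the median of all miRNAs, 0.51 and 2.64. Mesenchyme and smooth muscle and let-7 lie to the right of the dashed line on both scales, and the Sfmbt2 and miR-290 clusters lie to its left.

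Changes shared by the lines were found at many abundant miRNAs. On both scales 9 rises and 1 fall were called in each line with a 95% interval of the rescaled interaction within 2-fold. The deposited interaction of the rises named here was 2.42 to 2.87, close to the median of 2.64 for all miRNAs on that scale. The scales differ by 1 factor per library, so a small rescaled interaction gives a deposited one near that median. It is no separate evidence of a shared change. MiR-210-3p, which hypoxia induces, had 642 and 518 in D3 on day 7, against 52.7, 64.4 and 69.9 on day 0. In B8 miR-210-3p had 428, 571 and 679.5 on day 7, against 66.7, 62.3 and 77.4 on day 0. Days did not overlap in either line, and lines overlapped on both days. The change was 3.21 ± 0.21 in D3 (adjusted p = 1.01e-09) and 3.0 ± 0.19 in B8 (adjusted p = 1.16e-09), and the interaction 0.21 (95% interval -0.39 to 0.82). MiR-351-5p, of an X-linked cluster, had 449 and 510.2 in D3 on day 7, against 43.4, 33.2 and 30.6 on day 0. B8 had 525, 344 and 603 on day 7, against 48.9, 43.9 and 38.2 on day 0. The interaction was 0.30 (95% interval -0.35 to 0.95). Its neighbour miR-322-5p, which targets cell cycle genes, had 159 and 166 in D3 on day 7, against 14.5, 13.3 and 13.1 on day 0. B8 libraries held 284, 176 and 199 on day 7, against 16.1, 20.8 and 22.4 on day 0. The interaction was 0.11 (95% interval -0.55 to 0.77).

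MiR-103-3p, encoded in pantothenate kinase genes, had 1255 and 1235 in D3 on day 7, against 332, 418 and 406 on day 0. In B8 miR-103-3p had 742, 1274 and 854 on day 7, against 348, 399.8 and 349 on day 0. Both lines rose, B8 replicate 2 on day 7 was the highest B8 library, and the interaction of 0.35 (95% interval -0.22 to 0.92) was called without that library (0.62, adjusted p = 0.0211). MiR-744-5p had 812 and 999.6 in D3 on day 7, against 273, 226 and 295 on day 0. B8 had 1111, 859 and 1914 on day 7, against 327, 306 and 364 on day 0. The interaction was -0.11 (95% interval -0.85 to 0.64). MiR-151-3p had 886 and 1113 in D3 on day 7, against 437, 229 and 279.8 on day 0. B8 libraries held 1413, 744 and 1654 on day 7, against 364, 334 and 355 on day 0. The interaction was -0.07 (95% interval -0.93 to 0.79). MiR-532-5p, of an X-linked cluster, rose by 1.63 in D3 and 1.48 in B8, with an interaction of 0.16 (95% interval -0.44 to 0.76). The fall named by the same rule was miR-142a-5p, known from blood cells, which had 1.33 and 0.611 in D3 on day 7, against 16.5, 20.8 and 19.7 on day 0. In B8 miR-142a-5p had 19.9, 30.3 and 21.6 on day 7, against 386, 378 and 298 on day 0. It fell by similar factors in lines whose levels differed on both days, -3.91 ± 0.30 in D3 (adjusted p = 6.18e-09) and -3.88 ± 0.27 in B8 (adjusted p = 3.42e-09), with an interaction of -0.03 (95% interval -0.88 to 0.82). MiR-142a-5p had 4 and 2 reads in D3 on day 7, so the size of its D3 fall depends on the pseudocount. With a pseudocount of 10 per 1000000 the interaction of miR-142a-5p was called, at 0.89. Among the most abundant, miR-16-5p rose by 0.54 in D3 and 0.47 in B8, and miR-25-3p rose by 0.42 in D3 and 0.36 in B8, with interactions of 0.06 and 0.06 that were not called.

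On rescaled values the called differences were placed by whether the lines stood apart before or after differentiation. Of the 105 miRNAs called higher in D3, 64 were over 2-fold higher in D3 than in B8 on day 7, and 50 were over 2-fold lower in D3 than in B8 on day 0. The median gap, D3 minus B8, was 1.22 on day 7 and -0.89 on day 0, and the gap was the larger one on day 0 for 47 of them. Of the 65 called higher in B8, 55 were over 2-fold lower in D3 on day 7, while 53 were within 2-fold of each other on day 0, with median gaps of -2.68 on day 7 and 0.19 on day 0. Among the 351 miRNAs not called, 85 were over 2-fold higher and 43 over 2-fold lower in D3 on day 7. Of these 351, 47 were over 2-fold lower in D3 on day 0 and 263 were within 2-fold. Lines within 2-fold on day 0 were thus usual among the miRNAs not called as well. For let-7a-5p the lines were level on day 7 and apart on day 0, for miR-126a-5p and miR-467c-5p they were close on day 0 and apart on day 7, and for miR-2137 the gap was on day 0. Which day holds the gap depended on the scale. On deposited values all 105 called higher in D3 were over 2-fold higher in D3 on day 7 and 76 were over 2-fold lower in D3 on day 0, with median gaps of 2.61 on day 7 and -1.63 on day 0. Of the 65 called higher in B8, 43 were over 2-fold lower in D3 on day 7 and 25 on day 0 on that scale, with median gaps of -1.32 on day 7 and -0.84 on day 0. The miRNAs not called were not counted on that scale, which shifts every miRNA. The deposited gap of let-7a-5p was 1.41 on day 7 and -3.95 on day 0, that of miR-126a-5p 4.94 on day 7 and -0.99 on day 0, that of miR-467c-5p -2.22 on day 7 and -0.48 on day 0, and that of miR-2137 1.06 on day 7 and 2.63 on day 0. These gaps use the same libraries as the interaction and are a description of it.

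**Figure D5:**
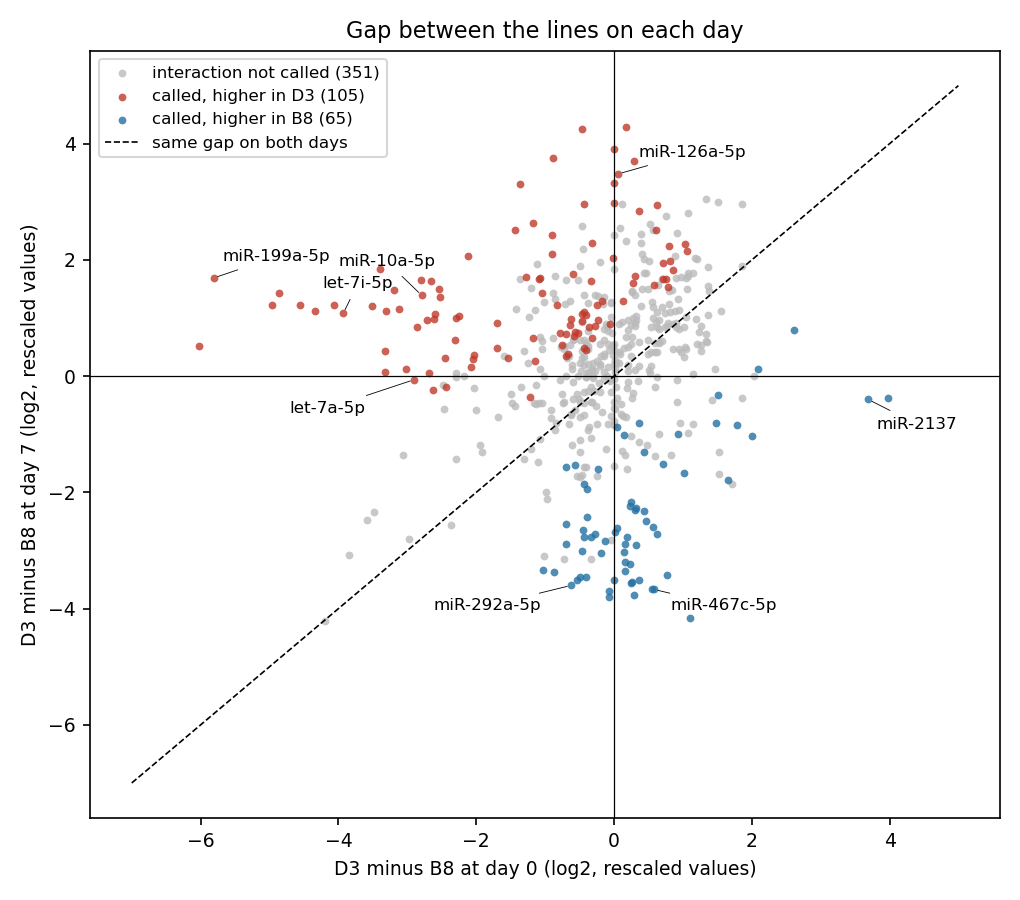
Difference between the lines, D3 minus B8 (log2 of rescaled values), on day 7 (vertical axis) against day 0 (horizontal axis) for 521 miRNAs, coloured by the call of the interaction, with the dashed line at the same gap on both days. The 65 miRNAs called higher in B8 lie mostly below 0 on day 7 and near 0 on day 0, and the 105 called higher in D3 spread over both axes.

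The strands of a hairpin were set side by side. Of 128 hairpins with both strands tested, 18 had both strands called in the same direction and 1 in opposite directions, 40 had 1 strand called and 69 none. The signs were the same for 97 of the 128, and the interactions of the 5p and 3p strands had a Pearson r of 0.680 and a Spearman rho of 0.524, given as a description, since strands of a hairpin share a transcript and a library. By position in GRCm38, the hairpins of miR-199a-2 and miR-214 had 4 of 4 strands called higher in D3. Those of let-7a-1, let-7f-1 and let-7d had 5 of 5, and the miR-290 cluster had 10 of 12 matched strands called higher in B8. The hairpins of miR-216a and miR-217 had 4 of 4 called higher in D3. These 4 strands were at 0 in D3 on day 0 and have no bound, so their calls rest on the pseudocount.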

How the data were processed

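Small RNA was sequenced from total RNA of 17 labelled samples, and 14 libraries with values were analysed (the day 21 samples of B8 were not used here). The deposited values are a signal: reads per mature miRNA divided by 1 factor per library, set by the authors, with TMM named in the table's title. Per the submitters' processing notes the tools were Bowtie, CASAVA, Partek and FastQC with the build mm10. Versions and the rule for reads that match several miRNAs are not given in the sources used here. Dividing by the smallest step of a library gave whole reads to within 0.01 for values up to 1000 reads, and recovered 56377 to 1060306 reads per library. Total sequencing depth is not given, and intervals and floors (3 reads) cover counting error only.

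The test covered 521 of 1033 miRNAs, those whose share of the column total averaged 5 per 1000000 or more. Values entered limma 3.58.1 (R 4.3.3) as log2 after a pseudocount was added, 0.36 to rescaled and 0.48 to deposited ones. The model had 5 group means over 14 libraries, which leaves 9 residual degrees of freedom, and its prior variance followed the level. D3 on day 21 enters no contrast, but it adds to the spread, the filter, the pseudocount and the median-of-ratios factors. A fit of the 4 compared groups alone lost 3 calls among the 86 named miRNAs and gained 1. Tests were 2-sided with Benjamini-Hochberg adjustment over all 521 and a threshold of 0.05. For the main scale each deposited column was divided by its median-of-ratios factor, taken from the 319 miRNAs with reads in every library. The fit was also run on simulated data with a fixed spread and changes set in D3 on day 7 alone. That simulation held no difference between the lines on day 0. It therefore does not bear on differences that rest on day 0. A fold against a group at 0 uses the mean of its libraries' floors. The alternatives were other pseudocounts, filters and scalings, edgeR 4.0.16 on recovered reads, a flat prior, a fit of the 4 compared groups, a replicate block and each library left out. Replicates of each group differed by more than sampling noise (chi-square over degrees of freedom 3.28 to 48.6).

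The members and the 23 lists were chosen with earlier results of these data known. Named miRNAs were, at or above the median level: the 10 each way with the largest interaction called alike on both scales, up to 6 each way shared within 2-fold, up to 6 each way with opposite changes, and from each list up to 3 members with the highest levels.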

Additional observations from a re-analysis of the deposited data

Results flagged for a closer look

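Whether the lines responded differently was tested by the interaction itself, and each named miRNA whose interaction was called is given here with its value on rescaled values (log2, D3 change minus B8 change). Counts over all miRNAs were 105 higher in D3 and 65 higher in B8 on rescaled values, and 374 higher in D3 and 13 higher in B8 on deposited values.

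Among the named miRNAs the higher fitted values in D3 were miR-199a-5p at 7.49, miR-214-3p at 6.53 (at least 2.94 from its bound, since D3 on day 0 was at 0), miR-214-5p at 6.28 (at least 2.71), miR-199a-3p at 6.18, miR-199b-3p at 5.80, miR-125b-1-3p at 5.46, miR-125b-5p at 5.28, let-7i-5p at 5.0, miR-143-3p at 4.45, miR-10a-5p at 4.18, miR-98-5p at 3.70, miR-10b-5p at 3.67, miR-126a-5p at 3.42, miR-181a-5p at 3.40 and miR-615-3p at 3.29. In the middle range were miR-100-5p at 2.93, let-7a-5p at 2.83, miR-302b-3p at 2.61, miR-34c-5p at 2.61, miR-126a-3p at 2.49, miR-29a-3p at 2.39, miR-181b-5p at 2.33, let-7e-5p at 2.24, miR-99b-5p at 1.86, miR-21a-5p at 1.83, miR-9-5p at 1.61, miR-148b-3p at 1.55 and miR-125a-5p at 1.53. Smaller differences higher in D3 were miR-302a-3p at 1.47, miR-27b-3p at 1.26, miR-30e-3p at 1.21, miR-301a-3p at 1.21, miR-302d-3p at 1.14, let-7c-5p at 0.86 and miR-410-3p at 0.75.

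The larger differences higher in B8 were miR-6240 at -3.04, miR-467e-5p at -3.17, miR-669o-5p at -3.35, miR-669a-3p at -3.51, miR-294-5p at -3.61, miR-669o-3p at -3.73, miR-669a-5p at -3.80, miR-669p-5p at -3.80, miR-669l-5p at -3.88, miR-669c-5p at -4.05, miR-2137 at -4.09, miR-669f-5p at -4.19 and miR-467c-5p at -4.25. Smaller differences higher in B8 were miR-429-3p at -0.86, miR-34a-5p at -0.92, miR-183-5p at -0.97, miR-375-3p at -1.16, miR-7a-5p at -1.17, miR-295-3p at -1.42, miR-182-5p at -1.56, miR-293-3p at -2.42, miR-467a-5p at -2.86 and miR-292a-5p at -2.98.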

How the results depend on the processing

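Apart from fits that leave out a library, counts moved by over 1.5 times under 3 settings, and the cause was not tested beyond the construction of each. On deposited values the interaction gave 374 higher in D3 and 13 higher in B8, D3 changes were 367 rises and 36 falls, shared changes not told apart were 19 rises and 13 falls, and classes were 95 of the same direction and different size, 161 in D3 alone, 37 in B8 alone and 86 opposite. With the deposited scale as the start, median-of-ratios factors gave 105 higher in D3 and 65 higher in B8. Equal column totals gave 52 higher in D3 and 107 higher in B8, D3 changes of 110 rises and 233 falls, 53 shared rises, 104 shared falls and 11 in B8 alone. A filter at 50 per 1000000, which tests fewer miRNAs, gave 123 rises in D3, 47 shared rises and 39 in D3 alone. With edgeR on recovered reads the interaction was called for 103 higher in D3 and 73 higher in B8, and on the deposited scale for 341 and 14.

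Of the 86 named miRNAs, 58 had a called difference. Among these 58, signs turned on deposited values for miR-295-3p (1.11), miR-293-3p (0.11), miR-182-5p (0.97), miR-183-5p (1.56), miR-7a-5p (1.35), miR-429-3p (1.66), miR-375-3p (1.33) and miR-34a-5p (1.60), and with equal column totals for let-7c-5p (-0.02) and miR-410-3p (-0.13). No other setting run turned a sign among these 58. Of the 28 whose difference was not called, 10 changed sign on deposited values, 18 with equal column totals and 11 without some library.

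Leaving out each library in turn gave 79 to 132 higher in D3 and 57 to 73 higher in B8 (338 to 370 and 9 to 15 on deposited values). D3 rises numbered 147 to 193 and falls 109 to 144, and B8 rises 124 to 141 and falls 116 to 141. Shared rises numbered 70 to 81, shared falls 39 to 58, those of different size 44 to 68, D3 alone 55 to 78, B8 alone 18 to 36 and opposite 12 to 21, against 22 in all libraries. Without 1 of the D3 libraries on day 7 that group holds 1 sample, which is then assumed to vary like the other groups.

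Whether equal replicate numbers mark paired samples is not in the labels. The deviations of 15 same-numbered pairs correlated at -0.084 to 0.131, with 1 over 0.1. This cannot show that samples were unpaired. The deviations of the 2 D3 libraries on day 7 are mirror images by construction, so pairs with them are not independent. With a replicate block the counts were 110 and 67 (369 and 14 on deposited values), and the block changed no call among the 86 named miRNAs.

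Depth limits D3 on day 0 most, where 3 reads correspond to 2.84 to 6.56 rescaled units, so interactions of members at 0 there rest on the pseudocount.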
